A study of Homo sapiens with 9 samples.

Results

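The genes that encode collagen chains were followed across 3 genotypes of DMS273, a human small cell lung cancer cell line. Members were chosen by name alone, as every row of the deposited count table whose gene name is COL, a number, A and a number. There were 50 such rows among the 67140 in the table, and 44 of them are genes on the primary chromosomes of the GENCODE 29 annotation. The other 6 rows are further copies of COL11A2 outside that annotation and held 0 counts. By the form of the collagen, the 44 genes were placed in 8 classes: 11 fibrillar chains, 6 chains of type IV, 5 of type VI, 10 FACIT chains, 3 of types VIII and X, 2 multiplexins, 4 transmembrane collagens and 3 others.

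Total RNA depleted of ribosomal RNA was sequenced from 9 libraries, 3 per genotype. Control cells carried a guide named sgScr and have the genotype label WT, the second group was knocked out for ATG7 (ATG7 KO), and the third for both ATG7 and SQSTM1 (ATG7/SQSTM1 KO), so that the loss of ATG7 is common to both knockouts. ATG7 is the enzyme that activates the autophagy conjugation systems, and SQSTM1 (p62) is a receptor that binds ubiquitinated cargo for autophagy and accumulates when autophagy is blocked. All 3 groups were made with a CRISPRv2 vector and grown with 10% serum. The labels do not say whether a group is 1 clone or a pool, nor whether its libraries came from separate cultures, so each p-value reflects the variation among these libraries alone, which may be technical.

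Collagens are the main structural proteins of the extracellular matrix. Each molecule is a helix of 3 chains, which may be alike or encoded by different genes. Fibrillar collagens (types I, II, III, V, XI, XXIV and XXVII) assemble into banded fibrils, type IV forms the sheet of basement membranes, type VI forms beaded filaments around cells, and FACIT collagens sit on the surface of fibrils. In the lung, fibrillar collagen is made mostly by fibroblasts, and type IV by epithelial and endothelial cells. Cells export procollagen through the endoplasmic reticulum with a set of hydroxylases and chaperones, and autophagy of the endoplasmic reticulum is one known route for degrading procollagen.

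Each library held 28675576 to 34222098 counts and detected 26075 to 27439 genes. Levels below are counts scaled to library size by the TMM method, in the unit CPM. ATG7 had 26.4 to 28.1 CPM in control, 9.98 to 13.0 CPM in ATG7 KO and 10.2 to 11.2 CPM in ATG7/SQSTM1 KO, so its RNA was lower but present in both knockouts. SQSTM1 had 373 to 380 CPM in control, 387 to 395 CPM in ATG7 KO and 48.7 to 55.3 CPM in ATG7/SQSTM1 KO. Small cell lung cancer cells are usually neuroendocrine, and the summed level of 7 neuroendocrine markers was 414.8 to 422.3 CPM in control, 145.0 to 147.3 CPM in ATG7 KO and 426.6 to 440.7 CPM in ATG7/SQSTM1 KO. NEUROD1 was the leading marker of this list (194, 73.2 and 237 CPM on average in control, ATG7 KO and ATG7/SQSTM1 KO). In ATG7/SQSTM1 KO against control, 2 of the 7 were called higher, among them NEUROD1 itself, and 3 lower (19.0% and 19.6% of all tested genes). The lower ones were INSM1 (means of 89.2 and 73.2 CPM in control and ATG7/SQSTM1 KO), CHGB (36.1 and 30.6 CPM) and NCAM1 (39.0 and 21.7 CPM).

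Collagen RNA as a whole was highest in ATG7 KO. The summed level of the 44 genes was 662, 662 and 654 CPM in the controls, 1177, 1210 and 1177 CPM in ATG7 KO and 947, 913 and 904 CPM in ATG7/SQSTM1 KO, with no overlap between groups. The mean sums of 659.4 ± 4.42, 1188 ± 19.2 and 921.2 ± 22.6 CPM (SD, n = 3) gave ratios of 1.80 for ATG7 KO to control and 1.40 for ATG7/SQSTM1 KO to control. An exact two-sided permutation test gave p = 0.1 for each of the 3 comparisons, the smallest that 3 libraries against 3 allow. In bulk RNA such as this, fewer cells of a type and less RNA per cell cannot be told apart.

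Gene by gene, 33 of the 44 collagens passed the filter on low counts and were tested with edgeR's quasi-likelihood test over all 18847 tested genes, with a Benjamini-Hochberg adjusted p under 0.05 as the call. A value after ± beside a log2 change is its standard error (SE), and 3 means set side by side are in the order control, ATG7 KO, ATG7/SQSTM1 KO. In ATG7 KO against control, 19 collagens were higher (57.6% of those tested, against 28.4% of all genes) and 5 were lower (15.2%, against 28.3%). Changes of at least 2-fold were called for 10 collagens upward (30.3%, against 4.22% of all genes) and 4 downward (12.1%, against 8.28%). The median log2 change was 0.30 over the collagens and -0.02 over all genes.

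Against control, ATG7/SQSTM1 KO had 14 collagens higher (42.4%, against 19.0% of all genes) and 9 lower (27.3%, against 19.6%). At 2-fold or more these numbers were 4 (12.1%, against 2.20%) and 1 (3.03%, against 1.66%), and the median log2 change was 0.23 against -0.01 for all genes. Between the knockouts, ATG7/SQSTM1 KO had 10 collagens higher than ATG7 KO (30.3%, against 30.5% of all genes) and 15 lower (45.5%, against 29.9%). The share of higher calls was therefore at the level of all genes. At 2-fold or more, 5 were higher (15.2%, against 9.07%) and 8 lower (24.2%, against 3.86%), with a median log2 change of -0.17 against 0.02. The 3 comparisons share libraries, so their counts are not independent of each other. Of the 33 genes, 17 had their highest mean level in ATG7 KO, 12 in ATG7/SQSTM1 KO and 4 in control.

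**Figure D1:**
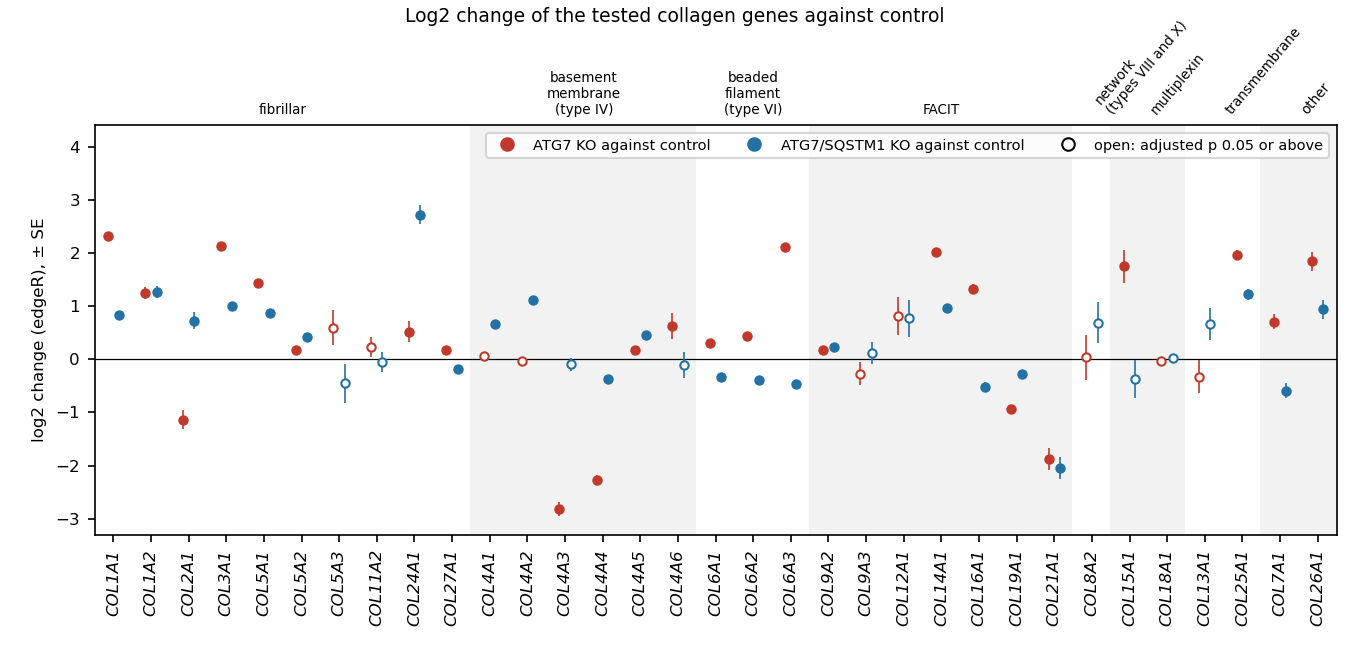
Log2 change of each tested collagen chain gene, by class, in each knockout against control, red for ATG7 KO and blue for ATG7/SQSTM1 KO. Points are edgeR log2 changes with standard errors as bars, open where the adjusted p was 0.05 or above; most fibrillar chains lie above 0 against control in both knockouts, and the type VI chains lie above 0 in ATG7 KO and below 0 in ATG7/SQSTM1 KO.

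Among the 11 fibrillar chains, 10 were tested. In each knockout against control, 7 (70.0%) were higher and 1 (10.0%) lower. Of all genes, 28.4% were higher and 28.3% lower in ATG7 KO, and 19.0% and 19.6% in ATG7/SQSTM1 KO. The median log2 change was 0.56 in ATG7 KO and 0.78 in ATG7/SQSTM1 KO. The class as a whole held 264, 264 and 262 CPM in the controls, 698, 716 and 682 CPM in ATG7 KO and 446, 422 and 419 CPM in ATG7/SQSTM1 KO. That was 39.9, 39.8 and 40.0% of collagen counts in the control libraries, 59.3, 59.2 and 57.9% in ATG7 KO and 47.1, 46.2 and 46.4% in ATG7/SQSTM1 KO. COL3A1, COL5A1 and COL1A1 had the largest differences in level between ATG7 KO and control.

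COL3A1 encodes the single chain of type III collagen, the fibril of distensible tissues such as lung and vessel wall (ENSG00000168542, chromosome 2, 188974320 to 189012746, plus strand; GENCODE 29, GRCh38, as for all positions of genes here). Its level was 74.8, 76.7 and 73.7 CPM in the control libraries, 332, 329.9 and 319 CPM in ATG7 KO and 158, 146 and 144 CPM in ATG7/SQSTM1 KO. The groups were far apart relative to the spread within them, and COL3A1 was 4.36-fold higher in ATG7 KO than in control, a log2 change of 2.12 ± 0.035 (adjusted p = 4.16e-21). In ATG7/SQSTM1 KO it was 1.99-fold above control (log2 change 0.99 ± 0.035, adjusted p = 3.26e-15) and 2.19-fold below ATG7 KO (log2 change -1.13 ± 0.033, adjusted p = 5.07e-17). This 1 gene took 11.4% of all collagen counts in control, 27.5% in ATG7 KO and 16.2% in ATG7/SQSTM1 KO.

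Type I collagen, the main fibril of bone, tendon and scar, is built from the chains of COL1A1 (ENSG00000108821, chromosome 17, 50183289 to 50201632, minus strand) and COL1A2 (ENSG00000164692, chromosome 7, 94394561 to 94431232, plus strand). COL1A1 had 19.2, 19.1 and 20.9 CPM in the control libraries, 95.5, 107 and 94.6 CPM in ATG7 KO and 36.8, 34.5 and 33.6 CPM in ATG7/SQSTM1 KO. It was 5.02-fold higher in ATG7 KO (log2 change 2.33 ± 0.054, adjusted p = 8.39e-18), the largest rise of any collagen in that comparison, and 1.77-fold higher in ATG7/SQSTM1 KO (log2 change 0.83 ± 0.057, adjusted p = 7.1e-10). COL1A2 had 3.84, 4.47 and 4.19 CPM in the control libraries, 11.6, 9.38 and 8.57 CPM in ATG7 KO and 9.73, 10.4 and 9.87 CPM in ATG7/SQSTM1 KO. Unlike COL1A1, it did not differ by the test between the knockouts (log2 change 0.03 ± 0.11, adjusted p = 0.856), and its log2 change from control was 1.24 ± 0.11 (adjusted p = 5.74e-09) in ATG7 KO and 1.26 ± 0.11 (adjusted p = 1.41e-08) in ATG7/SQSTM1 KO.

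Because the 2 chains join in one molecule, the ratio of COL1A1 to COL1A2 was taken per kilobase of exon. The log2 ratio was 2.50, 2.28 and 2.50 in control, 3.23, 3.69 and 3.65 in ATG7 KO and 2.10, 1.91 and 1.95 in ATG7/SQSTM1 KO. On a linear scale the group ratios were 5.38, 11.5 and 3.97. The groups did not overlap in any comparison, with an exact two-sided permutation p of 0.1 each (0.114 after Benjamini-Hochberg adjustment over 24 ratio tests, 8 chain pairs in 3 comparisons).

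Type V collagen starts fibrils and limits their width. Its chain genes moved by different amounts. COL5A1 had 47.9, 48.7 and 52.4 CPM in the control libraries, 134, 139.7 and 129.8 CPM in ATG7 KO and 94.5, 88.8 and 88.1 CPM in ATG7/SQSTM1 KO, a log2 change from control of 1.44 ± 0.042 (adjusted p = 3.03e-17) in ATG7 KO and 0.87 ± 0.042 (adjusted p = 7.72e-13) in ATG7/SQSTM1 KO. COL5A2, which lies next to COL3A1 on chromosome 2 (ENSG00000204262, chromosome 2, 189031896 to 189225312, minus strand), had 78.8, 74.1 and 70.6 CPM in the control libraries, 82.5, 85.9 and 83.9 CPM in ATG7 KO and 102, 97.1 and 98.6 CPM in ATG7/SQSTM1 KO. Its highest level was in ATG7/SQSTM1 KO, and its changes were the smaller ones (log2 change 0.17 ± 0.04, adjusted p = 0.000778 and 0.42 ± 0.04, adjusted p = 3.43e-08). The length-scaled log2 ratio of COL5A1 to COL5A2 was -1.30, -1.19 and -1.02 in control, 0.12, 0.12 and 0.04 in ATG7 KO and -0.70, -0.71 and -0.75 in ATG7/SQSTM1 KO. For the neighbours COL3A1 and COL5A2 it was 0.05, 0.18 and 0.19 in control, 2.14, 2.07 and 2.06 in ATG7 KO and 0.75, 0.72 and 0.68 in ATG7/SQSTM1 KO. Neither ratio overlapped between any groups (exact permutation p = 0.1, adjusted 0.114). The remaining type V gene, COL5A3, stayed near 1 CPM or below (means 0.670, 1.01 and 0.488 CPM). It was lower in ATG7/SQSTM1 KO than in ATG7 KO (log2 change -1.05 ± 0.34, adjusted p = 0.0118), a call that was lost without ATG7 KO replicate 3 (adjusted p = 0.0786) or ATG7/SQSTM1 KO replicate 3 (0.065). Its change in ATG7 KO against control (log2 change 0.60 ± 0.33, adjusted p = 0.135) was called only without ATG7 KO replicate 1 (0.0456).

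The minor fibrillar chains split. COL24A1 (ENSG00000171502, chromosome 1, 85729233 to 86156943, minus strand), a collagen of developing bone, had 1.04, 1.17 and 1.31 CPM in the control libraries, 1.74, 2.14 and 1.18 CPM in ATG7 KO and 7.72, 7.85 and 7.67 CPM in ATG7/SQSTM1 KO. All 3 ATG7/SQSTM1 KO libraries stood well above the other 6, at 6.59-fold control (log2 change 2.72 ± 0.18, adjusted p = 1.54e-10) and 4.59-fold ATG7 KO (log2 change 2.20 ± 0.17, adjusted p = 4.38e-10). In ATG7 KO against control the groups overlapped. The call there (log2 change 0.52 ± 0.20, adjusted p = 0.0291) was lost with DESeq2 (0.0525), with only these 6 libraries fitted (0.0803), without control replicate 1 (0.0983) or 2 (0.0597), and without ATG7 KO replicate 1 (0.0629) or 2 (0.202). COL27A1, a cartilage collagen, had 33.3, 33.1 and 31.9 CPM in the control libraries, 35.1, 37.1 and 39.0 CPM in ATG7 KO and 28.8, 29.5 and 28.7 CPM in ATG7/SQSTM1 KO, with log2 changes of 0.18 ± 0.048 (adjusted p = 0.0029) and -0.18 ± 0.048 (adjusted p = 0.00604) against control.

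Since COL24A1 was the collagen with the largest rise from control in ATG7/SQSTM1 KO, the 250 bases before its transcription start are shown, from RefSeq (GRCh38.p14, chr1:86156773-86157022, minus strand, read 5′ to 3′ toward the gene). None of the 7 short motifs described further below lay in these bases, so none is in capitals, and GENCODE 29 places exons over 47 of these bases. In the promoter windows searched there, a GC box was found for COL24A1, outside the bases shown.
COL24A1: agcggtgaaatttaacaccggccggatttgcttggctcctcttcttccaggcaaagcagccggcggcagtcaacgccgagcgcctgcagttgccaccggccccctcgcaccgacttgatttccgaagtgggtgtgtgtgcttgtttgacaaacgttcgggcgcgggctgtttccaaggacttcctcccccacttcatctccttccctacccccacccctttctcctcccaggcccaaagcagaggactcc

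COL2A1, the cartilage type II collagen, went the other way from most fibrillar chains in ATG7 KO. Its level was 3.08, 2.86 and 3.04 CPM in the control libraries, 1.50, 0.972 and 1.59 CPM in ATG7 KO and 4.51, 4.77 and 5.60 CPM in ATG7/SQSTM1 KO. It was 2.20-fold lower in ATG7 KO (log2 change -1.14 ± 0.18, adjusted p = 1.67e-05) and 1.66-fold higher in ATG7/SQSTM1 KO (log2 change 0.73 ± 0.17, adjusted p = 0.00132), with no overlap between any groups. COL2A1 is below the 5 CPM used to choose genes for such values and was added after its values were seen. COL11A2, a chain of cartilage type XI collagen, was at 2.55, 3.00 and 2.45 CPM and was called in no comparison (adjusted p = 0.293, 0.849 and 0.182). COL11A1 was not tested.

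**Figure D2:**
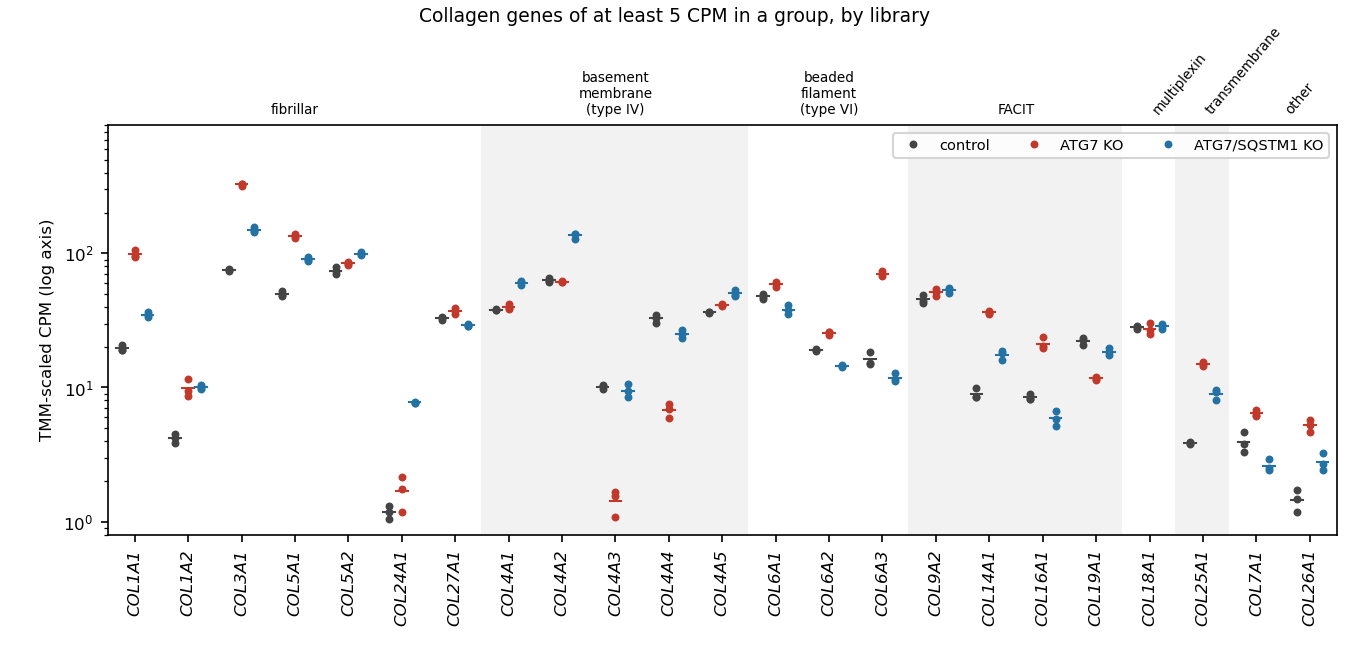
Level of the collagen chain genes with a mean of at least 5 CPM in a group, in each of the 9 libraries, in TMM-scaled CPM on a log axis, with 1 point per library and a bar at each group mean. COL3A1 stands at 319 to 332 CPM in ATG7 KO against 73.7 to 76.7 CPM in control, while COL4A3 and COL4A4 are lowest in ATG7 KO.

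In type IV collagen, COL4A1 and COL4A2 were highest in ATG7/SQSTM1 KO, while COL4A3 and COL4A4 were low in ATG7 KO. All 6 genes of this class were tested. In ATG7 KO against control, 2 were higher and 2 lower (28.4% and 28.3% of all genes). In ATG7/SQSTM1 KO against control, 3 were higher and 1 lower (19.0% and 19.6% of all genes). Between the knockouts, 5 were higher and 1 lower in ATG7/SQSTM1 KO (30.5% and 29.9% of all genes). The shares of both calls in ATG7 KO, and of lower calls in ATG7/SQSTM1 KO against control, were near those of all genes. Summed, the class held 177, 184 and 183 CPM in the controls, 156, 152 and 149.7 CPM in ATG7 KO and 286, 286 and 276 CPM in ATG7/SQSTM1 KO. Its share of collagen counts was 26.8, 27.7 and 28.0% in control, 13.2, 12.5 and 12.7% in ATG7 KO and 30.2, 31.3 and 30.6% in ATG7/SQSTM1 KO. The 6 genes lie in 3 head-to-head pairs, each pair read outward from a shared stretch of DNA, with RefSeq starts 127 bases apart for COL4A1 and COL4A2, 419 for COL4A3 and COL4A4, and 380 for COL4A5 and COL4A6.

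The shared stretches are printed in whole or in part from RefSeq (GRCh38.p14, plus strand, 5′ to 3′), since the pairs differ in whether their members changed together. They are chr13:110307158-110307283, which is the whole gap, and the 250 bases before the plus-strand start in the others, chr2:227164374-227164623 and chrX:108439588-108439837. Capitals mark the GC box (letters GGGCGG) and the CCAAT box on either strand, so that CCGCCC and ATTGG are the same motifs read from the other side. GENCODE 29 places exons over 124, 117 and 0 of these bases in that order, because some of its transcripts start in or beyond the gap.
COL4A2 and COL4A1: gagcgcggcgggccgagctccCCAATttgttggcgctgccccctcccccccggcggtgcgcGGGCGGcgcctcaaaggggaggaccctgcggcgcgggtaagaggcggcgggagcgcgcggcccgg
COL4A3 and COL4A4: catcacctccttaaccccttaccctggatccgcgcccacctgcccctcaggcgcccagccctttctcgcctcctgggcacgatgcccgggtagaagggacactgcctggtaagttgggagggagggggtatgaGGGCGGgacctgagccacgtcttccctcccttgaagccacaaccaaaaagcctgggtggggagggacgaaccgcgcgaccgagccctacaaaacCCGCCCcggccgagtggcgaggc
COL4A5 and COL4A6: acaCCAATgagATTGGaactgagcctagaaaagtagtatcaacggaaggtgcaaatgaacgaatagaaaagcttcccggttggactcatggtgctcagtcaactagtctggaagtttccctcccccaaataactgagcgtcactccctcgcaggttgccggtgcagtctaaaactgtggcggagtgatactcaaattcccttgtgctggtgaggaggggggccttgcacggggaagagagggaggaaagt

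COL4A1 (ENSG00000187498, chromosome 13, 110148963 to 110307233, minus strand) and COL4A2 (ENSG00000134871, chromosome 13, 110305812 to 110513209, plus strand) encode the chains found in nearly every basement membrane. COL4A1 had 38.0, 38.1 and 38.3 CPM in the control libraries, 41.7, 39.3 and 38.4 CPM in ATG7 KO and 61.2, 61.9 and 58.3 CPM in ATG7/SQSTM1 KO. COL4A2 had 60.8, 65.7 and 62.0 CPM in the control libraries, 62.5, 61.0 and 60.8 CPM in ATG7 KO and 139, 140.4 and 129 CPM in ATG7/SQSTM1 KO. Neither differed by the test between ATG7 KO and control (log2 change 0.06 ± 0.043, adjusted p = 0.241 and -0.03 ± 0.041, adjusted p = 0.524). In ATG7/SQSTM1 KO, COL4A1 was 1.59-fold (log2 change 0.67 ± 0.042, adjusted p = 6.38e-11) and COL4A2 2.17-fold (log2 change 1.12 ± 0.04, adjusted p = 4.11e-15) the control level. The rise of COL4A2 was the larger one: the length-scaled log2 ratio of COL4A1 to COL4A2 was -0.29, -0.40 and -0.30 in control, -0.20, -0.25 and -0.27 in ATG7 KO and -0.80, -0.79 and -0.76 in ATG7/SQSTM1 KO, without overlap (exact permutation p = 0.1, adjusted 0.114). In their shared stretch there was 1 CCAAT and 1 GC box.

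COL4A3 (ENSG00000169031, chromosome 2, 227164565 to 227314792, plus strand) and COL4A4 (ENSG00000081052, chromosome 2, 227002711 to 227164453, minus strand) encode chains of the basement membranes of the kidney glomerulus and the lung alveolus, and mutations in them cause Alport syndrome. COL4A3 had 10.4, 9.67 and 10.3 CPM in the control libraries, 1.09, 1.54 and 1.66 CPM in ATG7 KO and 8.50, 10.6 and 9.36 CPM in ATG7/SQSTM1 KO. COL4A4 had 30.4, 32.9 and 35.0 CPM in the control libraries, 6.95, 7.50 and 5.96 CPM in ATG7 KO and 26.9, 23.5 and 25.0 CPM in ATG7/SQSTM1 KO. Both were low in ATG7 KO alone: COL4A3 was 7.06-fold (log2 change -2.82 ± 0.14, adjusted p = 1.81e-13) and COL4A4 4.81-fold (log2 change -2.27 ± 0.082, adjusted p = 2.6e-15) below control, the largest falls of any collagens in that comparison. ATG7/SQSTM1 KO lay nearer to control, with a log2 change of -0.10 ± 0.11 (adjusted p = 0.543) for COL4A3, which was not called, and -0.38 ± 0.071 (adjusted p = 0.000228) for COL4A4. COL4A3 shares 120 exon bases with the antisense transcript AC097662.1, which had 399 counts over all libraries against 1971 for COL4A3. The library kit keeps the strand, but the labels do not give how strand was used in counting. The length-scaled log2 ratio of COL4A3 to COL4A4 was -1.40, -1.62 and -1.62 in control, -2.53, -2.14 and -1.70 in ATG7 KO and -1.52, -1.01 and -1.27 in ATG7/SQSTM1 KO, and control overlapped with ATG7/SQSTM1 KO (exact permutation p = 0.2) but not with ATG7 KO (0.1). For this pair, the 250 bases shown of the shared stretch held 2 GC boxes and no CCAAT.

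COL4A5 (ENSG00000188153, chromosome X, 108439844 to 108697545, plus strand) encodes the chain that joins the COL4A3 and COL4A4 products, and COL4A6 (ENSG00000197565, chromosome X, 108155607 to 108439497, minus strand) its partner in other epithelia. COL4A5 had 36.9, 36.2 and 36.5 CPM in the control libraries, 41.7, 40.8 and 41.1 CPM in ATG7 KO and 49.3, 47.9 and 53.7 CPM in ATG7/SQSTM1 KO, with log2 changes of 0.17 ± 0.045 (adjusted p = 0.00239) and 0.46 ± 0.045 (adjusted p = 4.05e-08) against control. COL4A6 was far lower, at 0.945, 1.03 and 1.22 CPM in the control libraries, 1.77, 1.41 and 1.75 CPM in ATG7 KO and 0.728, 1.17 and 1.08 CPM in ATG7/SQSTM1 KO. Its call of higher in ATG7 KO (log2 change 0.63 ± 0.24, adjusted p = 0.0297) was lost with DESeq2 (0.0744), without control replicate 1 (0.0946) or 2 (0.0682), and without ATG7 KO replicate 1 (0.0837) or 3 (0.0782). It was lower in ATG7/SQSTM1 KO than in ATG7 KO (log2 change -0.73 ± 0.24, adjusted p = 0.0115), a call lost without ATG7/SQSTM1 KO replicate 1 (0.073). COL4A5 was therefore 27.0, 19.7 and 40.4 times COL4A6 per kilobase in control, ATG7 KO and ATG7/SQSTM1 KO. The 250 bases shown of their shared stretch held 2 CCAAT motifs and no GC box. In the promoter windows searched further below, a GC box was found for COL4A6, outside the bases shown.

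**Figure D3:**
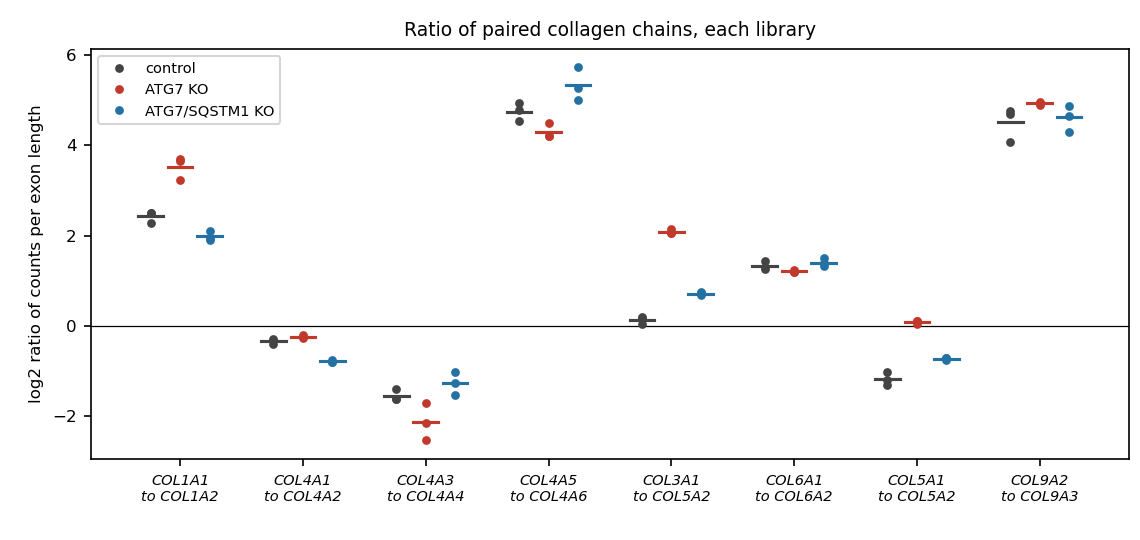
Length-scaled log2 ratio of 8 collagen chain pairs in each library, with 1 point per library, colours for the 3 groups and a line at each group mean. COL1A1 to COL1A2 and COL3A1 to COL5A2 are highest in ATG7 KO, while COL4A1 to COL4A2 is lowest in ATG7/SQSTM1 KO.

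The 3 type VI chains that could be tested rose in ATG7 KO and fell in ATG7/SQSTM1 KO, both against control. Among all genes, 28.4% were called higher in ATG7 KO and 19.6% lower in ATG7/SQSTM1 KO. Type VI collagen joins 1 chain each from COL6A1, COL6A2 and COL6A3 into filaments that link cells to the matrix. COL6A1 had 47.4, 50.2 and 45.6 CPM in the control libraries, 56.0, 59.2 and 61.1 CPM in ATG7 KO and 41.0, 35.3 and 37.8 CPM in ATG7/SQSTM1 KO. COL6A2, its neighbour on chromosome 21, had 19.3, 18.6 and 19.1 CPM in the control libraries, 24.8, 25.9 and 26.0 CPM in ATG7 KO and 14.6, 14.2 and 14.6 CPM in ATG7/SQSTM1 KO. Both changed by less than 2-fold against control, with log2 changes of 0.30 ± 0.051 (adjusted p = 4.89e-05) and 0.43 ± 0.057 (adjusted p = 1.45e-06) in ATG7 KO and -0.33 ± 0.053 (adjusted p = 5.15e-05) and -0.39 ± 0.059 (adjusted p = 1.74e-05) in ATG7/SQSTM1 KO.

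COL6A3 (ENSG00000163359, chromosome 2, 237324003 to 237414375, minus strand), the longest chain, had 15.1, 15.2 and 18.5 CPM in the control libraries, 68.3, 73.4 and 70.3 CPM in ATG7 KO and 11.2, 11.6 and 12.8 CPM in ATG7/SQSTM1 KO. It was 4.34-fold above control in ATG7 KO (log2 change 2.12 ± 0.067, adjusted p = 2.39e-14), 1.38-fold below control in ATG7/SQSTM1 KO (log2 change -0.46 ± 0.076, adjusted p = 0.000114) and 5.98-fold lower in ATG7/SQSTM1 KO than in ATG7 KO (log2 change -2.58 ± 0.07, adjusted p = 2.89e-15). No groups overlapped for any of these genes. The summed level of the class was 81.8, 84.0 and 83.3 CPM in the controls, 149, 158 and 157 CPM in ATG7 KO and 66.7, 61.2 and 65.2 CPM in ATG7/SQSTM1 KO. The length-scaled ratio of COL6A1 to COL6A2 was 2.53, 2.31 and 2.64 in control, ATG7 KO and ATG7/SQSTM1 KO (exact permutation p = 0.5 for ATG7/SQSTM1 KO against control and 0.1 for the other comparisons). COL6A5 had no count and COL6A6 at most 3 counts in a library.

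Of the 10 FACIT genes, 7 were tested. In ATG7 KO against control, 3 were higher and 2 lower (42.9% and 28.6%, against 28.4% and 28.3% of all genes). In ATG7/SQSTM1 KO against control, 2 were higher and 3 lower (28.6% and 42.9%, against 19.0% and 19.6%). Between the knockouts, 1 was higher and 2 lower in ATG7/SQSTM1 KO (14.3% and 28.6%, against 30.5% and 29.9%). The shares of lower calls in the first and last of these comparisons were near those of all genes. COL14A1, whose product binds fibril surfaces, had 9.85, 8.50 and 8.48 CPM in the control libraries, 37.4, 36.0 and 35.5 CPM in ATG7 KO and 18.0, 16.0 and 18.6 CPM in ATG7/SQSTM1 KO. It was 4.05-fold higher in ATG7 KO (log2 change 2.02 ± 0.072, adjusted p = 9.72e-16) and 1.96-fold higher in ATG7/SQSTM1 KO (log2 change 0.97 ± 0.074, adjusted p = 1.44e-09), the same order of groups as COL3A1. COL16A1, found in small fibrils of skin and cartilage, had 8.26, 9.02 and 8.22 CPM in the control libraries, 19.8, 20.2 and 23.6 CPM in ATG7 KO and 6.70, 5.18 and 5.83 CPM in ATG7/SQSTM1 KO. It was above control in ATG7 KO (log2 change 1.32 ± 0.093, adjusted p = 7.71e-11) and below it in ATG7/SQSTM1 KO (log2 change -0.52 ± 0.10, adjusted p = 0.000263), the same order of groups as COL6A3.

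COL19A1, a collagen of muscle and brain, had 23.5, 20.8 and 22.5 CPM in the control libraries, 11.7, 12.0 and 11.4 CPM in ATG7 KO and 17.3, 18.2 and 19.6 CPM in ATG7/SQSTM1 KO. It was lower than control in both knockouts (log2 change -0.93 ± 0.07, adjusted p = 2.5e-10 and -0.28 ± 0.067, adjusted p = 0.00241). Its exons share 70 bases with LMBRD1 on the other strand, a gene of 7055 counts over all libraries against 4876 for COL19A1. COL21A1 had 3.87, 3.65 and 3.17 CPM in the control libraries, 0.818, 1.04 and 1.05 CPM in ATG7 KO and 1.02, 0.686 and 0.860 CPM in ATG7/SQSTM1 KO. It was low in both knockouts (log2 change -1.87 ± 0.21, adjusted p = 9.17e-08 and -2.05 ± 0.21, adjusted p = 8.49e-08), whose libraries overlapped (log2 change -0.17 ± 0.23, adjusted p = 0.529). COL21A1 was the only tested collagen called at least 2-fold lower in ATG7/SQSTM1 KO than in control.

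Type IX collagen decorates cartilage fibrils. COL9A2 had 48.7, 44.3 and 43.0 CPM in the control libraries, 47.9, 51.3 and 54.5 CPM in ATG7 KO and 55.2, 53.8 and 50.6 CPM in ATG7/SQSTM1 KO. Its differences from control were small (log2 change 0.18 ± 0.054, adjusted p = 0.00958 and 0.23 ± 0.054, adjusted p = 0.00213), and the former was lost without control replicate 3 (adjusted p = 0.0573). COL9A3, at 2.34, 1.93 and 2.54 CPM, was not called in any comparison. It was called higher in ATG7/SQSTM1 KO than in ATG7 KO only without ATG7/SQSTM1 KO replicate 3 (0.0487 against 0.111). Its exons share 45 bases with TCFL5 on the other strand, a gene of 9971 counts over all libraries against 634 for COL9A3. COL12A1, a stress-responsive fibril-surface collagen, was at 0.346, 0.609 and 0.593 CPM. It was called in no comparison with all libraries (adjusted p = 0.0533 in ATG7 KO against control), but was called higher there without ATG7 KO replicate 3 (0.048) and with another scaling of the libraries (relative log expression, 0.0495).

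Outside these classes, the multiplexin COL18A1, a basement membrane collagen whose end fragment is endostatin, had 28.6, 28.1 and 27.3 CPM in the control libraries, 25.0, 30.3 and 27.0 CPM in ATG7 KO and 29.7, 28.98 and 27.2 CPM in ATG7/SQSTM1 KO. It was called in no comparison (adjusted p = 0.7, 0.735 and 0.404), and it shares 1401 exon bases with SLC19A1 on the other strand (14443 counts against 7812 for COL18A1). The related COL15A1 had 0.335, 0.826 and 0.544 CPM in the control libraries, 1.74, 1.94 and 2.04 CPM in ATG7 KO and 0.262, 0.446 and 0.605 CPM in ATG7/SQSTM1 KO. It was 3.37-fold higher in ATG7 KO than in control (log2 change 1.75 ± 0.31, adjusted p = 5.24e-05) and 4.36-fold lower in ATG7/SQSTM1 KO than in ATG7 KO (log2 change -2.12 ± 0.32, adjusted p = 6.27e-06), with the control and ATG7/SQSTM1 KO libraries overlapping (log2 change -0.37 ± 0.36, adjusted p = 0.457).

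COL25A1, a transmembrane collagen of neurons that is found in amyloid plaques, had 3.87, 3.79 and 3.90 CPM in the control libraries, 14.4, 15.6 and 15.1 CPM in ATG7 KO and 8.04, 9.64 and 9.29 CPM in ATG7/SQSTM1 KO. It was 3.90-fold above control in ATG7 KO (log2 change 1.96 ± 0.095, adjusted p = 1.42e-13) and 2.33-fold above it in ATG7/SQSTM1 KO (log2 change 1.22 ± 0.096, adjusted p = 2.19e-09). COL13A1, a transmembrane collagen of the neuromuscular junction, was at 0.948, 0.754 and 1.51 CPM. It was higher in ATG7/SQSTM1 KO than in ATG7 KO (log2 change 0.99 ± 0.30, adjusted p = 0.00753). Against control its difference in ATG7/SQSTM1 KO (log2 change 0.66 ± 0.29, adjusted p = 0.0829) was called only without control replicate 1 (0.0328) or with these 6 libraries alone (0.0492).

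COL26A1 had 1.71, 1.48 and 1.18 CPM in the control libraries, 5.28, 4.66 and 5.77 CPM in ATG7 KO and 3.26, 2.44 and 2.71 CPM in ATG7/SQSTM1 KO. Its log2 change from control was 1.84 ± 0.17 (adjusted p = 9.94e-09) in ATG7 KO and 0.94 ± 0.18 (adjusted p = 0.000233) in ATG7/SQSTM1 KO. COL7A1, which forms the anchoring fibrils of skin, had 3.81, 4.68 and 3.33 CPM in the control libraries, 6.17, 6.27 and 6.79 CPM in ATG7 KO and 2.42, 2.92 and 2.52 CPM in ATG7/SQSTM1 KO. It was higher in ATG7 KO (log2 change 0.70 ± 0.14, adjusted p = 0.000178) and lower in ATG7/SQSTM1 KO (log2 change -0.59 ± 0.15, adjusted p = 0.00276) than in control. COL8A2, a network collagen of the cornea, was at 0.313, 0.319 and 0.506 CPM and was called in no comparison.

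The 11 untested genes were near the limit of detection at this depth, so that their values are given as counts. COL9A1 had 16, 6 and 11 counts in control, 0, 0 and 0 in ATG7 KO and 0, 2 and 0 in ATG7/SQSTM1 KO. COL22A1 had 20, 15 and 10 counts in control, 6, 2 and 5 in ATG7 KO and 6, 0 and 5 in ATG7/SQSTM1 KO. Both were highest in control. COL28A1, highest in ATG7 KO, had 4, 0 and 2 counts in control, 15, 12 and 10 in ATG7 KO and 0, 3 and 0 in ATG7/SQSTM1 KO. COL23A1, a transmembrane collagen, had 6, 6 and 8 counts in control, 0, 7 and 8 in ATG7 KO and 14, 11 and 7 in ATG7/SQSTM1 KO, and its groups overlapped. COL10A1, COL17A1 and COL8A1 reached at most 10, 5 and 9 counts in any library, and COL11A1, COL20A1 and COL6A6 at most 3, 3 and 3. COL6A5 had none.

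**Figure D4:**
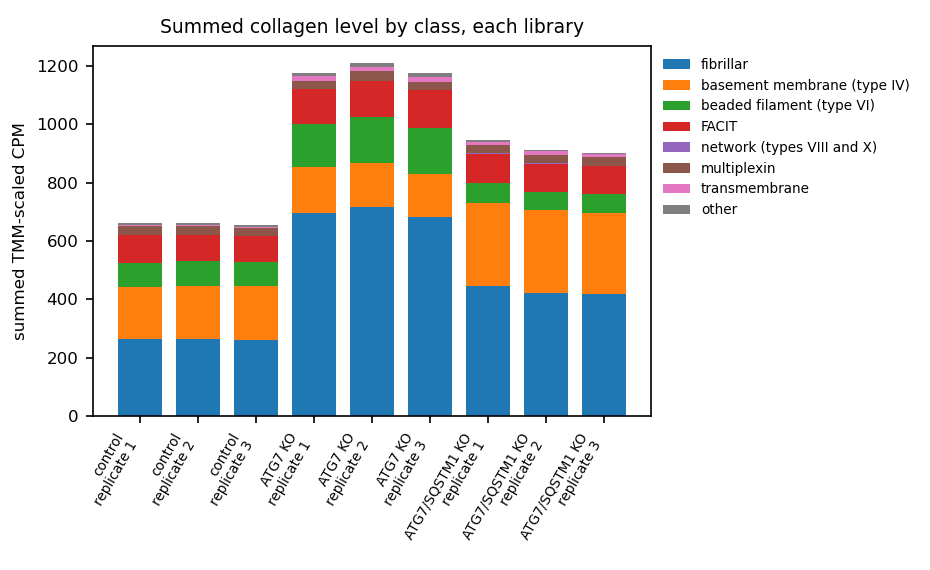
Summed level of each collagen class in the 9 libraries, in TMM-scaled CPM, as 1 stacked bar per library with colours for the classes. The fibrillar part is the tallest in every library, at 261.7 to 264.2 CPM in the controls and 681.5 to 716.2 CPM in ATG7 KO, and the type IV part is tallest in ATG7/SQSTM1 KO at 276.4 to 285.9 CPM.

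Levels of different genes were compared per kilobase of exon. COL3A1 ranked first in every group, at 11.0 ± 0.22 CPM per kilobase (SD, n = 3) in control, 48.0 ± 1.0 in ATG7 KO and 21.9 ± 1.1 in ATG7/SQSTM1 KO. In control its libraries overlapped with those of COL9A2 at 10.7 ± 0.7, while COL5A2 at 10.0 ± 0.55 was below COL3A1 in each library, followed by COL6A1 at 8.94 ± 0.43. In ATG7 KO the next genes, COL9A2 (12.1 ± 0.78), COL5A1 (12.0 ± 0.44), COL5A2 (11.3 ± 0.23) and COL6A1 (11.0 ± 0.48), were close together and all well below COL3A1. In ATG7/SQSTM1 KO, COL5A2 (13.3) and COL9A2 (12.6) came after it, and COL4A2, which was eighth in control at 3.26, ranked sixth at 7.06.

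The proteins that fold, modify, export and anchor collagen were read from 5 lists with 50 genes, of which 47 were tested. Against control, 26 were higher and 15 lower in ATG7 KO, where 28.4% and 28.3% of all genes were called. The share of lower calls there was near that of all genes. In ATG7/SQSTM1 KO 17 were higher and 9 lower (19.0% and 19.6% of all genes), so that the share of lower calls was near that of all genes against control. Between the knockouts, 15 were higher and 25 lower in ATG7/SQSTM1 KO (30.5% and 29.9% of all genes), so that the share of higher calls was near that of all genes. Each list's median below can be set beside the median over all genes given above, which was within 0.02 of 0 in every comparison. Folding and modification, with 18 genes, had 11 higher and 5 lower in ATG7 KO (median log2 change 0.34) and 5 higher and 10 lower between the knockouts (-0.22). SERPINH1 (HSP47), the chaperone specific to procollagen, had 94.8, 95.0 and 94.1 CPM in the control libraries, 220.1, 215 and 216 CPM in ATG7 KO and 134, 132 and 138 CPM in ATG7/SQSTM1 KO. It was 2.29-fold higher in ATG7 KO (log2 change 1.20 ± 0.029, adjusted p = 1.83e-18) and 1.42-fold higher in ATG7/SQSTM1 KO (log2 change 0.51 ± 0.029, adjusted p = 1.39e-11), the order of groups seen for COL3A1.

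P3H2, a prolyl 3-hydroxylase that acts on type IV collagen, had 1.95, 2.86 and 2.56 CPM in the control libraries, 16.8, 17.4 and 16.9 CPM in ATG7 KO and 4.66, 3.63 and 4.27 CPM in ATG7/SQSTM1 KO. It was 6.94-fold higher in ATG7 KO (log2 change 2.79 ± 0.12, adjusted p = 3.4e-14), where the type IV sum was lowest. The collagen galactosyltransferases moved apart: COLGALT1 was 0.35 and COLGALT2 -1.23 on the log2 scale in ATG7 KO against control (adjusted p = 5.59e-11 and 3.38e-13). FKBP10, a prolyl isomerase that assists procollagen folding, was named after its values were seen, with means of 2.42 ± 0.15, 4.94 ± 0.53 and 11.6 ± 0.56 CPM (SD, n = 3) in control, ATG7 KO and ATG7/SQSTM1 KO (log2 change 2.26 ± 0.12, adjusted p = 2.66e-12 in ATG7/SQSTM1 KO against control). The prolyl 4-hydroxylase subunits P4HA1 and P4HB went opposite ways in ATG7 KO (log2 change -0.20 ± 0.041, adjusted p = 0.000283 and 0.36 ± 0.025, adjusted p = 7.99e-11).

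Export of collagen from the endoplasmic reticulum uses enlarged COPII carriers. Among its 9 genes, 3 were higher and 4 lower in ATG7 KO (28.4% and 28.3% of all genes), with a median log2 change of -0.08. SEC23A, a COPII coat subunit, was 0.21 higher (log2, adjusted p = 2.49e-06), and the transcription factors CREB3L1 and CREB3L2 changed by 1.71 and -0.28 (adjusted p = 4.25e-06 and 5.85e-07). Between the knockouts, 3 export genes were higher and 4 lower in ATG7/SQSTM1 KO (30.5% and 29.9% of all genes). The higher ones were KLHL12, the adaptor that enlarges COPII carriers (log2 change 0.64 ± 0.039, adjusted p = 5.88e-12), TRAPPC2 (log2 change 0.90 ± 0.066, adjusted p = 1.18e-10) and MIA3 (TANGO1), the receptor that loads procollagen (log2 change 0.33 ± 0.033, adjusted p = 1.66e-08).

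Procollagen is trimmed at both ends before fibrils form. Of 7 tested trimming genes, 3 were higher and 4 lower in ATG7 KO (28.4% and 28.3% of all genes), with a median log2 change of -0.33. PCOLCE, which speeds removal of the C-terminal propeptide, rose (log2 change 0.96 ± 0.032, adjusted p = 3.56e-16). The N-propeptidase ADAMTS2 had 33.1, 32.9 and 33.8 CPM in the control libraries, 13.5, 14.6 and 14.1 CPM in ATG7 KO and 38.8, 42.7 and 42.7 CPM in ATG7/SQSTM1 KO and fell in ATG7 KO (log2 change -1.24 ± 0.055, adjusted p = 3.59e-14), as did ADAMTS14 (log2 change -1.49 ± 0.072, adjusted p = 1.32e-13). Both were higher in ATG7/SQSTM1 KO than in ATG7 KO, by 1.56 and 1.29 on the log2 scale (adjusted p = 7.65e-16 and 1.52e-12).

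Lysyl oxidases cross-link fibrils. Of the 5, 2 were higher and 2 lower in ATG7 KO against control (28.4% and 28.3% of all genes). LOX (log2 change 0.54 ± 0.079, adjusted p = 2.38e-05) and LOXL2 (log2 change 0.73 ± 0.05, adjusted p = 4.66e-11) rose. LOXL1 (log2 change -0.30 ± 0.049, adjusted p = 1.66e-05) and LOXL4 (log2 change -1.52 ± 0.13, adjusted p = 1.19e-09) fell. Of 8 tested collagen receptors, 7 were higher and none lower in ATG7 KO against control (28.4% and 28.3% of all genes). Their median log2 change there was 0.56. In ATG7/SQSTM1 KO against ATG7 KO, 1 was higher and 7 lower (30.5% and 29.9% of all genes), with a median of -0.84. The integrin subunit ITGA2 had 15.3, 15.2 and 15.9 CPM in the control libraries, 40.1, 42.2 and 39.9 CPM in ATG7 KO and 12.6, 13.4 and 14.4 CPM in ATG7/SQSTM1 KO, a log2 change of 1.40 ± 0.059 (adjusted p = 1.66e-14) in ATG7 KO. The receptor kinase DDR1 (log2 change 0.56 ± 0.029, adjusted p = 4.93e-13) and the uptake receptor MRC2 (log2 change 0.55 ± 0.034, adjusted p = 9.39e-12) rose there too. DDR2, the kinase that recognises fibrillar collagen, was the 1 receptor higher in ATG7/SQSTM1 KO than in ATG7 KO (log2 change 0.37 ± 0.036, adjusted p = 1.07e-08).

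**Figure D5:**
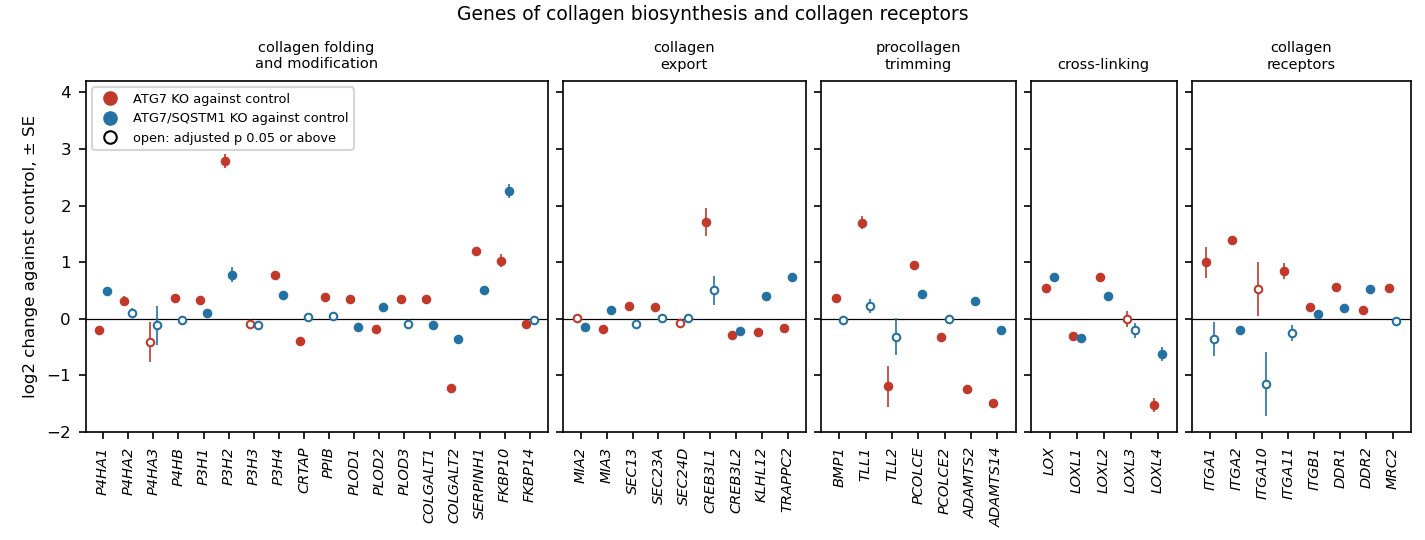
Log2 change against control of the tested genes of 5 collagen pathway lists, red for ATG7 KO and blue for ATG7/SQSTM1 KO, with standard errors as bars and open points where the adjusted p was 0.05 or above. The 8 receptors lie above 0 in ATG7 KO (median 0.56), while P3H2 is the highest point of that knockout and ADAMTS14 and LOXL4 are the lowest.

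Markers of other cells that make or carry collagen were read in the same libraries. The summed level of 12 fibroblast markers was 299.9 to 312.3 CPM in control, 474.4 to 483.6 CPM in ATG7 KO and 456.9 to 461.1 CPM in ATG7/SQSTM1 KO. Of the 10 tested, 3 were higher and 3 lower in ATG7 KO against control, 5 higher and 3 lower in ATG7/SQSTM1 KO against control, and 5 higher and 4 lower in ATG7/SQSTM1 KO against ATG7 KO. Of all genes, 28.4% were higher and 28.3% lower in the first of these comparisons, 19.0% and 19.6% in the second, and 30.5% and 29.9% between the knockouts. The fibril-binding proteoglycans LUM and DCN and the matrix protein POSTN rose in ATG7 KO (1.50, 1.50 and 2.29 on the log2 scale; adjusted p = 1.65e-12, 3.59e-14 and 2.56e-20). The 3 that fell there were PRRX1 (log2 change -1.87 ± 0.34, adjusted p = 0.00357), FBLN1 (-0.30 ± 0.03, adjusted p = 2.56e-08) and TWIST2 (-0.51 ± 0.13, adjusted p = 0.00232). FBLN1 had the highest control mean of the list, 169 CPM against 137 CPM in ATG7 KO. PDGFRA, PDGFRB, FAP and DPT were not called in that comparison. MFAP5 was at 0 in all libraries, THY1 was at or below a mean of 0.165 CPM, and PDGFRB was at 0.842, 1.08 and 0.614 CPM. The part of fibroblast-like expression in the collagen changes was not tested.

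Endothelial markers summed to 1.71 to 2.07 CPM in control, 3.375 to 3.86 CPM in ATG7 KO and 0.828 to 1.44 CPM in ATG7/SQSTM1 KO over 6 genes, and blood cell markers to 2.44 to 3.17, 8.415 to 8.81 and 2.37 to 3.495 CPM over 5 genes, with CD3E and MS4A1 at 0. The 3 tested members of each list were higher in ATG7 KO than in control (28.4% of all genes). They were lower in ATG7/SQSTM1 KO than in ATG7 KO (29.9% of all genes). VWF, at means of 0.107, 0.531 and 0.112 CPM, passed the filter on low counts only through its ATG7 KO libraries. PTPRC, at 0.174, 1.47 and 0.39 CPM, was well above that filter in ATG7 KO alone. For these genes the direction of the calls was partly set by the filter. The endothelial markers CDH5 (0.2805, 0.34 and 0.207 CPM), KDR (0.098, 0.053 and 0.050 CPM) and ROBO4 (0, 0.021 and 0.021 CPM) were not tested. All 7 neuroendocrine markers were lower in ATG7 KO than in control by at least 2-fold (8.28% of all genes). All 7 neuroendocrine markers were higher by at least 2-fold in ATG7/SQSTM1 KO than in ATG7 KO (9.07% of all genes). Their relation to the collagen changes was not tested.

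Promoter windows of RefSeq (250 bases before to 50 after each start, GRCh38.p14) were found for 32 of the 44 collagens, as 44 windows. The other 12 had no window and were not searched. They were COL1A1, COL1A2, COL2A1, COL3A1, COL5A2, COL6A1, COL6A5, COL8A1, COL9A3, COL14A1, COL20A1 and COL22A1, which include several of the collagens with large changes. The 44 windows were searched on both strands for 7 motifs, whose matches may overlap one another: the TATA box (letters TATAAA), the CCAAT box (its letters), the GC box (letters GGGCGG), the AP-1 site (letters TGANTCA), the TEAD site (letters GGAATG), an E-box (letters CAGATG) and an interferon response element (GAAA, any 2 bases, GAAA). The GC box was in 54.5% of collagen windows and 44.9% of all 34943 windows, the CCAAT box in 31.8% and 34.6%, and the TATA box in 18.2% and 11.6%. The rest were scarce in the collagen windows searched, at 2.27% for AP-1 (7.72% of all windows), 6.82% for TEAD (14.0%), 2.27% for the interferon element (3.57%) and 9.09% for the E-box (14.7%). These are letter matches and describe sequence only.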

How the data were processed

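The authors deposited 1 table of whole-number counts per gene for the 9 libraries, with a missing value wherever a count would be 0 (362598 cells, read here as 0). Per the submitters' processing notes, reads were aligned with HISAT2 to hg38; the version, how reads were counted (program, strand) and over which annotation were not given in the sources used here. Per the labels' protocols, the libraries were made from 400 ng of RNA with a strand-keeping kit and 12 PCR cycles. Library totals were 28675576 to 34222098 counts, and 31038 of the 67140 rows had no count in any library. One further column, which matches no labelled sample, was left out (1 column).

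Genes with enough counts by filterByExpr (minimum count 10, by group) were fitted over all 9 libraries with group means in edgeR 4.0.16 (robust quasi-likelihood, TMM scaling, R 4.3.3, 6 residual degrees of freedom), and p-values were adjusted by Benjamini-Hochberg over the 18847 tested genes. Over all genes the biological coefficient of variation was 6.39%. The method was tested on simulated data. Levels are TMM-scaled CPM, and levels per length use the union of GENCODE 29 exons. Class sums and chain ratios were compared with exact permutation tests in SciPy 1.17.1. The alternatives were DESeq2 1.42.0, other scalings and filters, 6 libraries only, a replicate block, and leaving out each library.

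The name rule for members, the classes, the pathway lists, the marker lists and the tests were set with earlier results of these data known. The name rule itself used no values. Per-library values are given for collagens with a mean of at least 5 CPM in the highest group and for the 3 largest changes each way in each comparison. From each pathway list, up to 3 called genes with the smallest p in ATG7 KO against control or in ATG7/SQSTM1 KO against ATG7 KO are named, and other names were added after their values were seen.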

Additional observations from a re-analysis of the deposited data

How the results depend on the processing

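For the 33 tested collagens in 3 comparisons, 99 results were recomputed under 16 alternatives, 9 of which leave out 1 library each. Under the minimum mean of 1 CPM only 87 of the 99 could be recomputed, since COL5A3, COL8A2, COL12A1 and COL15A1 were not tested there. Of 1572 values, 1551 kept their side of the threshold, 15 lost the call and 6 gained one. Reversals of direction with a call in either fit numbered 0. Changes of direction without a call in either fit were not counted. The 9 gene and comparison pairs with a changed call belong to COL4A6, COL5A3, COL9A2, COL9A3, COL12A1, COL13A1 and COL24A1, and their values stand in the report. Leaving out each library in turn gave 18 to 20 collagens higher and 5 to 7 lower in ATG7 KO against control, 14 to 15 and 9 to 11 in ATG7/SQSTM1 KO against control, and 10 to 11 and 15 to 16 between the knockouts. With DESeq2 the counts were 17 and 5, 14 and 9, and 10 and 15. With library totals alone in place of TMM, the summed collagen level was 666.6 CPM for control and 1166 CPM for ATG7 KO. The chain ratios do not depend on the scaling. Genes near 1 CPM or below rest on few counts, which limits the precision of COL4A6, COL5A3, COL8A2, COL12A1 and COL13A1.

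The groups share replicate numbers, but same-numbered libraries did not deviate together (correlations of -0.0613 to 0.0234), so the numbers do not pair them. With the replicate block in the fit, 19 collagens were higher and 5 lower, 14 higher and 9 lower, and 10 higher and 15 lower in the same order of comparisons.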
